A study of Mus musculus with 12 samples.

Results

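The genes described here are 10 genes of the cellular defence against oxidants, most of them known targets of the transcription factor NRF2: Hmox1, Nqo1, Gclm, Gclc, Txnrd1, Srxn1, Slc7a11, Sod2, Prdx1 and Nfe2l2, the last of which encodes NRF2 itself. They were picked by symbol from the 43280 genes of the deposited expression table. All 10 were found, and all 10 were among the 12086 genes tested, those reaching 1 CPM (the counts-per-million unit, which divides a gene's reads by the library's total) in 2 or more libraries. The study profiled bone marrow-derived macrophages by RNA-seq, that is, cells grown from mouse bone marrow in medium with the growth factor M-CSF. It asked how loss of Treml4, which encodes a receptor of the TREM-like family, alters inflammatory activation. Marrow came from wild type (wt) and Treml4-/- mice, both on a C57BL6 background, and the age of the mice is not given in the sources used here. Cells at 0 h had only the PBS vehicle, and the other cells had lipopolysaccharide (LPS, a bacterial cell wall component that activates Toll-like receptor signalling) at 100 ng/mL for 8 or 12 h. How long the vehicle was left on the cells, and whether the 3 times came from 1 culture, is not given, so 0 h stands for vehicle of unstated length. Each of the 6 conditions has 2 libraries labelled as biological replicates, 12 in all. The labels do not name the animals or say whether cells were pooled, so every p-value measures the spread between libraries.

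NRF2 is held in the cytoplasm by KEAP1, which marks it for degradation. Oxidants and electrophiles modify cysteines of KEAP1, NRF2 accumulates, pairs with a small MAF protein and binds antioxidant response elements near its target genes. NRF2 is therefore controlled largely at the level of the protein, which RNA-seq does not measure. In macrophages the pathway is known for limiting the oxidative burden that follows microbial stimulation, and some of its genes also carry binding sites for inflammatory factors such as AP-1 and NF-kB.

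Sequence near the gene starts is shown first, because NRF2 binds a DNA element near its target genes. The genes were picked by symbol and not by this element. RefSeq promoter windows (build GRCm38.p6, 250 bases before to 50 bases after a start) matched 8 of the 10 symbols, with no entry for Hmox1 and Gclc. The core of the antioxidant response element was searched as TGACNNNGC on both strands, and 12.4% of all 32851 windows hold it. It was found for Gclm, Txnrd1 (in 1 of its 3 windows), Srxn1, Prdx1 and Nfe2l2. In each sequence below, printed in the direction of the gene, capitals mark the match.

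Gclm, chr3:122245383-122245471, plus strand: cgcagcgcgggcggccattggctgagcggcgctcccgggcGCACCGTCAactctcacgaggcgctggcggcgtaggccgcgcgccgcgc
Txnrd1, chr10:82859074-82859162, plus strand: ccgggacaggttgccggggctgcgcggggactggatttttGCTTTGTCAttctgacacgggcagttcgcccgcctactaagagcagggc
Srxn1, chr2:152105542-152105570, plus strand: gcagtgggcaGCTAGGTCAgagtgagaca
Prdx1, chr4:116685426-116685514, plus strand: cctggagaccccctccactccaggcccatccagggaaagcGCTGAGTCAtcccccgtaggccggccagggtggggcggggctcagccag
Nfe2l2, chr2:75704855-75704913, minus strand: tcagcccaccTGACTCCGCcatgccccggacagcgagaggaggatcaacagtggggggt

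The match of Gclm lies 134 bases before the start, that of Txnrd1 92, that of Prdx1 133 and that of Nfe2l2 240 bases before it, while that of Srxn1 lies 29 bases after it. In Prdx1 the match overlaps an AP-1 site, searched as TGAGTCA, which 5.20% of all windows hold and which the window of Srxn1 also holds. The NF-kB consensus, searched as well, was found in 8.46% of all windows. Among the 8 matched genes only Sod2 and Prdx1 had it, and in Sod2 the match, 83 bases before the start, meets the consensus on both strands. The match in Prdx1 lies 170 bases before the start. That of Sod2 is shown because Sod2 had the strongest change of all members at 8 h, a choice made by its value. A role of either site was not tested.

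Sod2, chr17:13007716-13007805, plus strand: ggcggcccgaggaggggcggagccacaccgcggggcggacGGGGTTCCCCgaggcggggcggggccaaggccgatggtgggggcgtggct

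The windows of Nqo1 and Slc7a11 held none of the 3 motifs, which says only that these letters are absent from these windows. RefSeq starts can differ from the GENCODE gene ends given further on. A match is a description of the letters and no evidence of binding in these cells.

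The libraries held 48008751 to 58500792 reads on genes, so that 3 reads, the limit a count of 0 allows, corresponded to 0.0513 to 0.0625 CPM. Such limits cover counting error only. Treml4 had 0 reads in each of the 6 Treml4-/- libraries and 3.95 to 13.2 CPM in the wt libraries. Nos2, the inducible nitric oxide synthase, had 3.39 to 6.90 CPM at 0 h and 15560 to 19425 CPM after LPS. Of 7 macrophage markers, 6 were in the table (Adgre1 was not analysed here), and their summed level was 18630 to 25435 CPM at 0 h, 8395 to 11112 at 8 h and 8113 to 8921 at 12 h. Of these 6, Lyz2, Csf1r and Cd68 fell in CPM in wt cells at 8 h (log2 -1.29, -2.41 and -0.95). Fcgr1 and Mertk rose (4.30 and 2.88), and Itgam was at 0.18 (adjusted p = 0.108 by limma's test). The median of all genes was -0.74 in the same comparison. Marker values are not given under the second scaling described below, so their direction there is not shown. The summed level of 6 neutrophil and precursor markers was 26.5 to 90.0 CPM at 0 h, 23.6 to 34.0 at 8 h and 8.85 to 9.25 at 12 h. The 4 B cell markers summed to at most 6.48 CPM, the 4 dendritic cell markers to at most 7.61 and the 4 stromal markers to at most 1.25. The T cell markers Cd3e, Cd3d and Cd3g had at most 3 reads in any library. These sums moved with LPS, and their part in the results below was not tested.

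LPS also changed the make-up of the libraries. The 100 most abundant genes took 27.9 to 30.4% of the reads at 0 h, 32.4 to 33.5% at 8 h and 36.1 to 37.3% at 12 h. In CPM, which divides by library totals, the median of all 12086 genes was 0.74 log2 units lower at 8 h than at 0 h in wt cells and 0.70 lower in Treml4-/- cells. At 12 h it was 0.77 lower in wt and 0.74 lower in Treml4-/- cells. A second scaling by the median of ratios, which places the typical gene near no change, gave medians of -0.03, -0.05, -0.04 and -0.03. Gene by gene, its log2 change was higher than that by library totals by a median of 0.79, 0.71, 0.82 and 0.77. The members' LPS results are therefore given under both scalings, and a ratio of members within a library depends on neither. In bulk samples such as these, fewer cells of a type and less RNA per cell cannot be told apart.

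At 8 h of LPS the members did not move as a block. Slc7a11, Hmox1, Prdx1 and Sod2 rose and Nqo1, Gclm and Gclc fell in both genotypes and under both scalings. Txnrd1, Srxn1 and Nfe2l2 were called higher with the median of ratios only. A gene was called where limma's test gave a Benjamini-Hochberg adjusted p under 0.05 over all 12086 genes and a fold change of at least 1.4. Scaled by library totals, 4 members were called higher, 3 lower and 3 neither in wt cells, where 16.3% of all genes were called higher and 60.6% lower. The count was the same in Treml4-/- cells, with 17.7% and 58.1% of all genes. Scaled by the median of ratios, 7 members were higher and 3 lower in each genotype, against 30.9% of all genes higher and 30.9% lower in wt, and 31.0% and 32.5% in Treml4-/- cells. The median log2 change of the members was 0.27 in wt and 0.22 in Treml4-/- cells by library totals, and 1.11 and 0.98 by the median of ratios, where the medians of all genes were -0.03 and -0.05.

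At 12 h the same 4 members were called higher in both genotypes under both scalings. By library totals Nqo1, Gclm, Gclc and Nfe2l2 were called lower and Txnrd1 and Srxn1 neither. The background then was 16.2% higher and 60.4% lower in wt cells and 16.1% and 59.6% in Treml4-/- cells. By the median of ratios Nqo1 alone was called lower and 6 members were called higher, the 4 above with Txnrd1 and Srxn1. The background under that scaling was 32.9% higher and 33.1% lower in wt and 32.4% and 32.5% in Treml4-/- cells. The 8 h and 12 h comparisons of a genotype share their 0 h libraries.

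**Figure D1:**
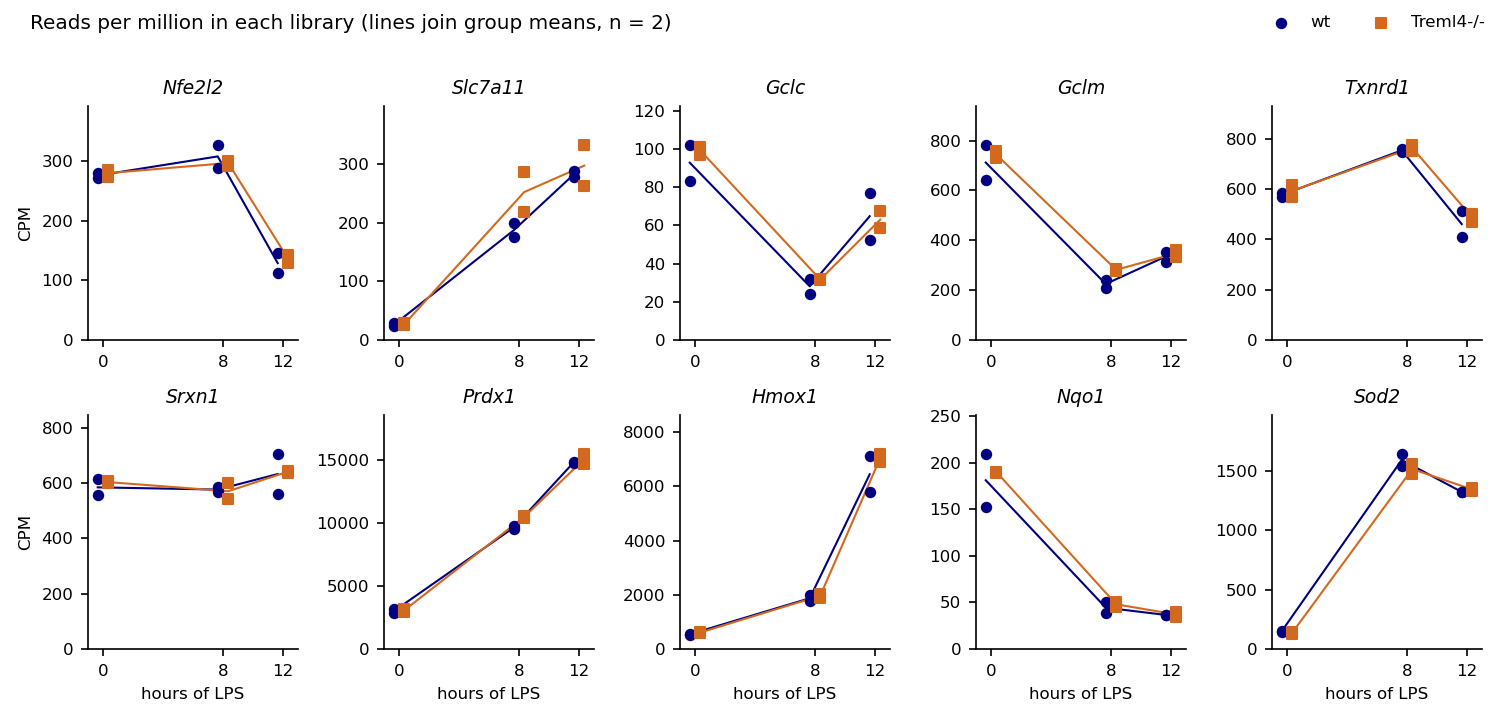
CPM (linear axis from 0) of each member against hours of LPS. Each point is 1 library, circles are wt and squares are Treml4-/-, lines join the means of 2 libraries, and points are set slightly apart sideways for legibility. Hmox1 climbs from 537 to 630 CPM at 0 h to 5788 to 7182 CPM at 12 h, while Nqo1 drops from 152 to 209 CPM to 34.2 to 39.8 CPM.

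Nfe2l2, the gene of NRF2 (chromosome 2, 75675513 to 75704641, minus strand, in GRCm38 like all gene positions here), was steady at 8 h in CPM and lower at 12 h. In wt cells it had 281 and 271 CPM at 0 h, 288 and 327 at 8 h and 112 and 146 at 12 h. The Treml4-/- libraries had 274 and 285, then 301 and 292, then 142 and 129 CPM. The 12 h libraries were thus below all others, and the 8 h libraries just above those at 0 h. The log2 change at 8 h was 0.15 ± 0.12 (SE) in wt cells (adjusted p = 0.238) and 0.08 ± 0.12 in Treml4-/- cells (adjusted p = 0.512) by library totals, and 1.00 and 0.83, both called, by the median of ratios. At 12 h Nfe2l2 fell by 1.10 on the log2 scale in wt cells (adjusted p = 3.5e-06) and by 1.04 in Treml4-/- cells (adjusted p = 5.9e-06) by library totals. By the median of ratios the change was -0.23 in wt cells (adjusted p = 0.0922) and -0.22 in Treml4-/- cells (adjusted p = 0.107), and was not called.

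Between 8 and 12 h, where the scalings differed by only 0.05, Nfe2l2 transcript fell in both. Averaged over genotypes it dropped by 1.19 on the log2 scale by library totals (SE 0.08, adjusted p = 5.7e-07) and by 1.14 by the median of ratios. This was the strongest fall among the members between these times.

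Slc7a11 and the glutamate-cysteine ligase genes stand in 1 pathway and, under both scalings, moved in opposite directions at 8 h. Slc7a11 (chromosome 3, 49892526 to 50443614, minus strand) encodes the light chain of the cystine/glutamate exchanger, which brings in the cystine from which glutathione is made. It had 23.1 and 28.2 CPM in wt cells at 0 h, 175 and 200 at 8 h and 277 and 288 at 12 h. In Treml4-/- cells it had 24.9 and 28.8, then 218 and 286, then 332 and 262 CPM. Every LPS library was far above every 0 h library. Slc7a11 rose 7.08-fold in wt cells (log2 2.82 ± 0.16, adjusted p = 1.5e-08) and 9.01-fold in Treml4-/- cells (log2 3.17 ± 0.16, adjusted p = 6.4e-09) at 8 h. At 12 h it was up 10.7-fold and 10.6-fold. The median of ratios put the rise at 12.5-fold and 14.9-fold at 8 h and 19.2-fold and 18.5-fold at 12 h.

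Gclc encodes the catalytic and Gclm the modifier subunit of glutamate-cysteine ligase, the rate-limiting enzyme of glutathione synthesis. Gclc (chromosome 9, 77754535 to 77794485, plus strand) had 102 and 83.1 CPM in wt cells at 0 h, 24.0 and 32.1 at 8 h and 52.4 and 77.1 at 12 h. In Treml4-/- cells it had 96.9 and 101, then 31.4 and 32.0, then 67.4 and 58.5 CPM. Its level was thus lowest at 8 h and partly back at 12 h. It fell by 1.70 on the log2 scale in wt cells (SE 0.18, adjusted p = 3.9e-06) and by 1.61 in Treml4-/- cells (adjusted p = 5.9e-06) at 8 h, and by 0.87 in each under the median of ratios.

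At 12 h the direction of Gclc depended on the scaling. By library totals it was still lower than at 0 h, by 1.44-fold in wt (log2 -0.53, adjusted p = 0.0172) and 1.57-fold in Treml4-/- cells (log2 -0.65, adjusted p = 0.00566). The call in wt cells was lost without wt 0 h replicate 1 (log2 -0.38) and without wt 12 h replicate 1 (log2 -0.26). Under the other scaling the change was 0.33 in wt and 0.17 in Treml4-/- cells, and neither was called. The rise of Gclc from 8 to 12 h passed under both scalings, at 1.07 on the log2 scale by library totals (SE 0.13, adjusted p = 3.3e-05) and 1.12 by the median of ratios.

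Gclm (chromosome 3, 122245557 to 122270732, plus strand) followed a similar course from a higher level. The wt libraries had 782 and 642 CPM at 0 h, 242 and 208 at 8 h and 315 and 355 at 12 h. Those of Treml4-/- cells had 729 and 759, then 286 and 278, then 362 and 334 CPM. All LPS libraries were below all 0 h libraries. At 8 h Gclm fell 3.15-fold in wt (log2 -1.66 ± 0.11, adjusted p = 8.7e-08) and 2.63-fold in Treml4-/- cells (adjusted p = 3.5e-07), and the median of ratios values were -0.81 and -0.64, both called. At 12 h it was lower by 2.11-fold and 2.14-fold by library totals, but under the median of ratios the log2 change was -0.21 in wt (adjusted p = 0.0698) and -0.27 in Treml4-/- cells (adjusted p = 0.0235, a fold of 1.21), and was not called. Exons of Gclm share 244 bases with the same-strand pseudogene Gm6061 and 296 bases with Gm17494 on the other strand, so a part of its reads is uncertain. The strand setting of the counting is not given in the sources used here.

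Within a library the log2 ratio of Slc7a11 to Gclc went from between -2.15 and -1.56 at 0 h to between 2.64 and 3.16 at 8 h and between 1.90 and 2.40 at 12 h, over both genotypes. The ratio thus shifted 24.3-fold in wt and 29.1-fold in Treml4-/- cells at 8 h, and 16.0-fold and 17.4-fold at 12 h. The ratio of Slc7a11 to Gclm shifted 23.1-fold in wt and 24.5-fold in Treml4-/- cells at 8 h, with no overlap between 0 h and LPS libraries. The 2 ligase subunits kept closer to each other, with the log2 ratio of Gclm to Gclc changing by 0.07 in wt and 0.24 in Treml4-/- cells at 8 h and by -0.55 and -0.44 at 12 h. These ratios are descriptions, without a test.

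**Figure D2:**
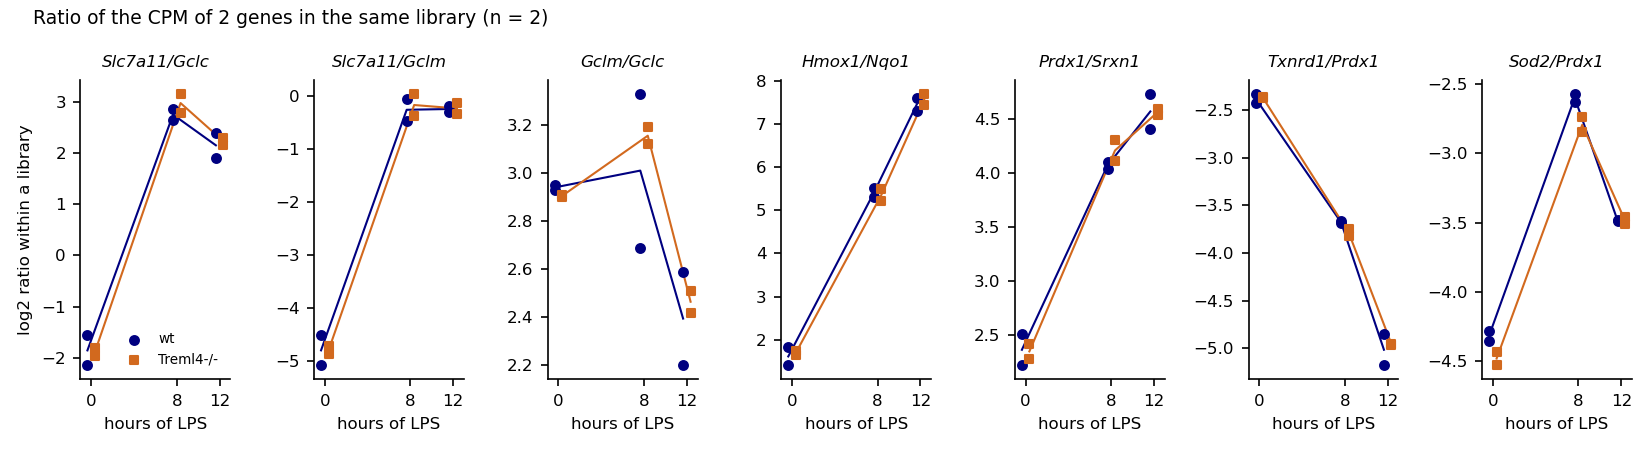
Log2 ratio of the CPM of 2 members in the same library (vertical axes, scaled per panel and not starting at 0) against hours of LPS, 1 point per library, circles wt and squares Treml4-/-, with lines through the means of 2 libraries. The ratio of Slc7a11 to Gclc lies below 0 in all 0 h libraries and at 1.90 or more in all LPS libraries.

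The thioredoxin branch was uneven too. Thioredoxin reductase (Txnrd1) passes electrons from NADPH to thioredoxin, peroxiredoxin 1 (Prdx1) reduces hydrogen peroxide, and sulfiredoxin (Srxn1) repairs peroxiredoxins that were overoxidised. Prdx1 (chromosome 4, 116685544 to 116700822, plus strand) was the most abundant member per exon length in every condition. It had 3155 and 2864 CPM in wt cells at 0 h, 9775 and 9545 at 8 h and 14877 and 14804 at 12 h. The Treml4-/- libraries had 2954 and 3207, then 10397 and 10614, then 15492 and 14703 CPM. The 3 times did not overlap. Prdx1 rose 3.21-fold in wt (adjusted p = 2.4e-08) and 3.41-fold in Treml4-/- cells (adjusted p = 1.6e-08) at 8 h, and 4.94-fold and 4.90-fold at 12 h. Scaled by the median of ratios, the rise was 5.77-fold and 5.75-fold at 8 h and 9.05-fold and 8.69-fold at 12 h. RefSeq names a pseudogene, Prdx1-ps, whose near copy of the sequence could divide reads with Prdx1.

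Txnrd1 (chromosome 10, 82833951 to 82897712, plus strand) peaked at 8 h. In wt cells it had 586 and 569 CPM at 0 h, 759 and 749 at 8 h and 409 and 513 at 12 h. In Treml4-/- cells it had 568 and 618, then 775 and 753, then 502 and 471 CPM. In each genotype the 8 h libraries were the highest and the 12 h libraries the lowest. By library totals its log2 change at 8 h was 0.38 ± 0.10 in wt (adjusted p = 0.00454) and 0.37 ± 0.10 in Treml4-/- cells (adjusted p = 0.00629), which is under a fold of 1.4 and so not called. At 12 h it was -0.33 in wt (adjusted p = 0.0106) and -0.28 in Treml4-/- cells (adjusted p = 0.0236), again under the fold limit. Without wt 12 h replicate 2 the wt value was -0.50 and was called.

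Txnrd1 was higher by the median of ratios at both times, 2.34-fold in wt and 2.17-fold in Treml4-/- cells at 8 h and 1.46-fold and 1.45-fold at 12 h, so its direction at 12 h turned with the scaling. From 8 to 12 h it fell under both, by 0.68 on the log2 scale by library totals (SE 0.07, adjusted p = 1.4e-05) and by 0.63 by the median of ratios. Relative to Prdx1 in the same library, Txnrd1 was 2.46-fold lower at 8 h than at 0 h in wt and 2.65-fold lower in Treml4-/- cells, and 6.22-fold and 5.97-fold lower at 12 h.

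Srxn1 (chromosome 2, 152105516 to 152111376, plus strand) had the flattest course in CPM. The wt libraries had 556 and 613 CPM at 0 h, 568 and 584 at 8 h and 561 and 704 at 12 h. Those of Treml4-/- cells had 607 and 600, then 600 and 541, then 644 and 637 CPM. The times overlapped in wt cells, as did 0 and 8 h in Treml4-/- cells. By library totals no change was called, with log2 values of -0.02 ± 0.11 in wt and -0.08 ± 0.11 in Treml4-/- cells at 8 h (adjusted p = 0.875 and 0.480) and 0.11 ± 0.11 and 0.09 ± 0.11 at 12 h (adjusted p = 0.365 and 0.464). The sign of the wt values changed when single wt libraries were left out. Srxn1 was called higher by the median of ratios, 1.77-fold and 1.59-fold at 8 h and 1.97-fold and 1.88-fold at 12 h. In the same library the ratio of Prdx1 to Srxn1 rose 3.26-fold in wt and 3.61-fold in Treml4-/- cells at 8 h, and 4.58-fold and 4.62-fold at 12 h.

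Hmox1 and Nqo1, both widely used as readouts of NRF2, parted ways. Hmox1 (chromosome 8, 75093621 to 75100589, plus strand) encodes heme oxygenase 1, which opens the heme ring and releases iron, carbon monoxide and biliverdin. In wt cells it had 553 and 537 CPM at 0 h, 1993 and 1753 at 8 h and 7097 and 5788 at 12 h. The Treml4-/- libraries had 630 and 593, then 1894 and 2036, then 6890 and 7182 CPM. Each time stood clear of the others. Hmox1 rose 3.43-fold in wt (log2 1.78 ± 0.11, adjusted p = 4.1e-08) and 3.21-fold in Treml4-/- cells (adjusted p = 6.4e-08) at 8 h, and 11.7-fold and 11.5-fold at 12 h. By the median of ratios the rise was 6.15-fold and 5.41-fold at 8 h and 21.5-fold and 20.4-fold at 12 h. From 8 to 12 h it rose a further 3.50-fold (log2 1.81 ± 0.08, adjusted p = 3.4e-08), the strongest rise among the members between these times.

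Nqo1 (chromosome 8, 107388225 to 107403206, minus strand) encodes NAD(P)H quinone dehydrogenase 1, which reduces quinones by 2 electrons. The wt libraries had 209 and 152 CPM at 0 h, 50.4 and 38.5 at 8 h and 36.7 and 36.5 at 12 h. In Treml4-/- cells it had 190 and 189, then 51.0 and 45.0, then 39.8 and 34.2 CPM. All LPS libraries were at 51.0 CPM or lower and all 0 h libraries at 152 or higher. Nqo1 fell 3.99-fold in wt (log2 -2.00 ± 0.16, adjusted p = 3.0e-07) and 3.90-fold in Treml4-/- cells (adjusted p = 3.4e-07) at 8 h, and 4.77-fold and 5.03-fold at 12 h. Under the other scaling the fall was 2.23-fold and 2.32-fold at 8 h and 2.62-fold and 2.86-fold at 12 h. The ratio of Hmox1 to Nqo1 in the same library rose 13.9-fold in wt and 12.7-fold in Treml4-/- cells at 8 h and 57.4-fold and 59.2-fold at 12 h.

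Sod2 (chromosome 17, 13006846 to 13040063, plus strand) encodes the manganese superoxide dismutase of mitochondria and is a textbook target of NF-kB as well. In wt cells it had 155 and 147 CPM at 0 h, 1643 and 1546 at 8 h and 1324 and 1325 at 12 h. In Treml4-/- cells it had 128 and 148, then 1558 and 1476, then 1356 and 1334 CPM. The level was highest at 8 h and the 12 h libraries lay just under it. Sod2 rose 10.5-fold in wt (log2 3.39 ± 0.09, adjusted p = 4.2e-11) and 10.9-fold in Treml4-/- cells (adjusted p = 3.9e-11) at 8 h, and 8.72-fold and 9.70-fold at 12 h. Scaled by the median of ratios, the rise was 18.8-fold and 18.4-fold at 8 h and 15.9-fold and 17.1-fold at 12 h. The difference from 8 to 12 h, -0.22 on the log2 scale (adjusted p = 0.00948), was under the fold limit. Hmox1, Prdx1 and Slc7a11, which were called higher at both times too, had their highest mean level at 12 h instead.

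**Figure D3:**
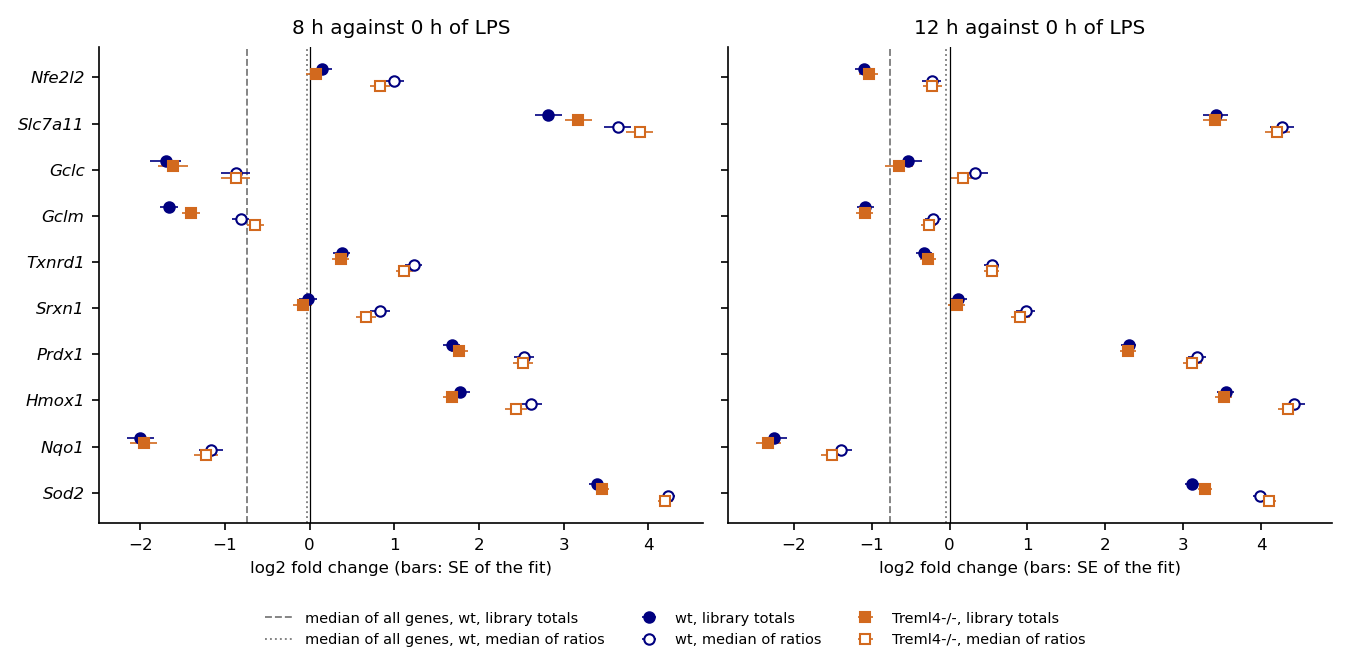
Log2 fold change of each member at 8 h (left) and 12 h (right) of LPS against 0 h, with SE bars. Filled symbols are scaled by library totals and open symbols by the median of ratios, circles are wt and squares Treml4-/-, and grey lines mark the median of all genes in wt cells. Slc7a11, Prdx1, Hmox1 and Sod2 lie right of 1 in every case and Nqo1 left of -1, whereas Gclc and Txnrd1 cross 0 between scalings at 12 h.

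Between 8 and 12 h, averaged over genotypes, Hmox1, Gclc and Prdx1 were called higher and Txnrd1 and Nfe2l2 lower by library totals, where 13.5% of all genes were called higher and 18.7% lower. Prdx1 rose 1.49-fold (adjusted p = 3.3e-05). The values of Gclm (log2 0.44, adjusted p = 6.3e-04), Slc7a11 (0.42, adjusted p = 0.00674) and Nqo1 (-0.31, adjusted p = 0.0300) did not reach a fold of 1.4, and Srxn1 (0.15, adjusted p = 0.115) passed neither limit. Gclm was also called higher by the median of ratios (log2 0.49), with 15.5% of all genes higher and 17.1% lower. Gclm was called by library totals too without wt 8 h replicate 1 (0.49), and Slc7a11 without Treml4-/- 8 h replicate 2 (0.51) or Treml4-/- 12 h replicate 2 (0.50).

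Levels of different genes were compared per kb of merged exon, with lengths from the GENCODE M21 annotation of GRCm38. The order of the top 3 was the same in all 6 conditions, with Prdx1 above Hmox1 above Srxn1. In wt cells at 0 h Prdx1 had a mean of 989, Hmox1 311 and Srxn1 207 CPM per kb, followed by Nqo1 (116), Gclm (113), Txnrd1 (81.5), Nfe2l2 (72.7), Gclc (24.6), Sod2 (15.1) and Slc7a11 (1.84). Nqo1 and Gclm were the only neighbours whose libraries overlapped. The order at 0 h was the same in Treml4-/- cells, where Slc7a11 had 1.93 CPM per kb.

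After LPS the lower ranks were rearranged. At 8 h Sod2 came next after Srxn1, with 159 CPM per kb in wt and 152 in Treml4-/- cells, and Gclc was last with 7.45 and 8.42. At 12 h Hmox1 had come close to Prdx1, with 3679 against 4877 CPM per kb in wt and 4019 against 4961 in Treml4-/- cells, though their libraries did not overlap. Slc7a11 and Gclc overlapped in wt cells at 12 h (20.3 and 17.2), as did Nqo1 and Slc7a11 in Treml4-/- cells (23.8 and 21.3). The merged exons take in long transcript ends, 10.0 kb in all for Sod2 and 13.9 kb for Slc7a11, so the levels per kb of these genes are low estimates if the cells use shorter transcripts.

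**Figure D4:**
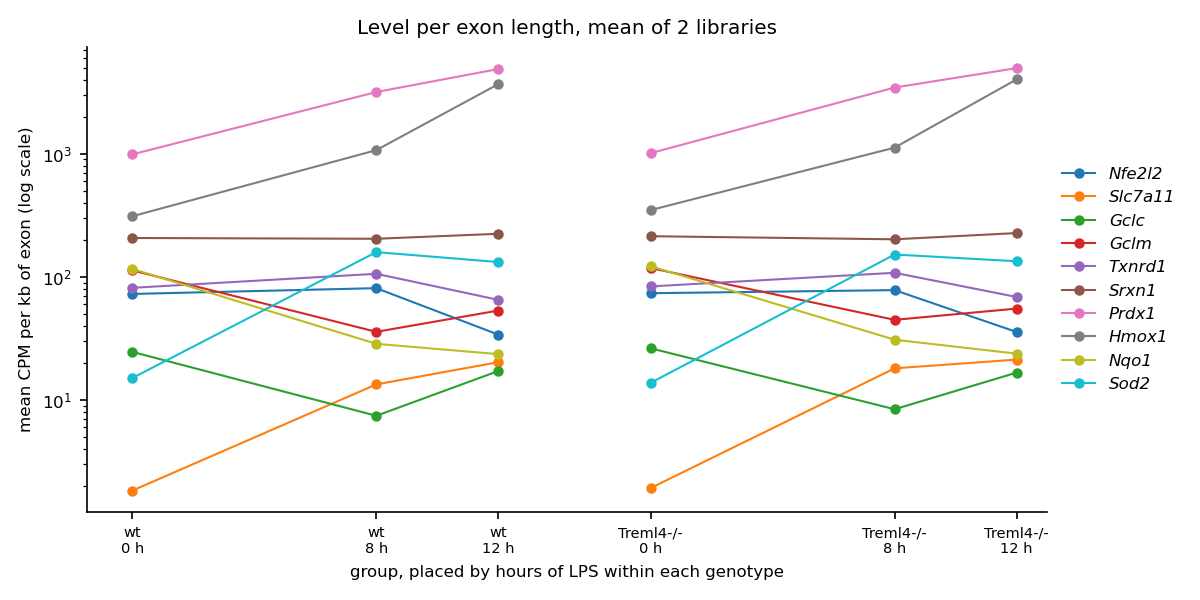
Mean CPM per kb of merged exon (log axis) of each member in the 6 conditions, wt on the left and Treml4-/- on the right, each point the mean of 2 libraries. Prdx1, Hmox1 and Srxn1 lead in every condition, Sod2 climbs from 15.1 to 159 CPM per kb in wt cells by 8 h, and Slc7a11 starts lowest.

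Loss of Treml4 was the study's own question, and none of the 10 members was called different between genotypes at 0, 8 or 12 h. Of all genes, 0.0993% were called at 0 h, 0.0910% at 8 h and 0.132% at 12 h, and 0.414% for the mean of the 3 times, in which no member was called either. At an unadjusted p under 0.05 there were 0 members at 0 h, 2 at 8 h, 0 at 12 h and 1 in the mean, where 3.35%, 21.0%, 7.55% and 20.1% of all genes passed, so these counts were no higher than the background. The response to LPS was compared between genotypes as well, and no member was called at 8 or 12 h, with 0.00827% of all genes called at each. At an unadjusted p under 0.05 no member passed in either response comparison, where 806 of the 12086 genes passed at 8 h and 462 at 12 h. So few of all genes passed that 0 of 10 members is no result about the members. The limma voom fit on reads recovered from the deposited values called no member in any of these 6 comparisons.

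The 2 members at 8 h were Gclm and Slc7a11, named here after their values were seen among the 10. Gclm had 242 and 208 CPM in wt and 286 and 278 in Treml4-/- cells, without overlap, a log2 difference of -0.33 for wt minus Treml4-/- (95% interval -0.58 to -0.08). Its adjusted p was 0.176 in the limma fit across all genes. Slc7a11 had 175 and 200 CPM in wt and 218 and 286 in Treml4-/- cells, also without overlap, a difference of -0.42 (95% interval -0.76 to -0.07). Its adjusted p was 0.187 in the same fit. Under the median of ratios the differences were -0.20 (adjusted p = 0.234) and -0.29 (adjusted p = 0.286). Leaving out 1 library moved Gclm between -0.44 and -0.22 and Slc7a11 between -0.61 and -0.22, with no call. The difference of the 8 h responses was -0.26 for Gclm (adjusted p = 0.736) and -0.35 for Slc7a11 (adjusted p = 0.736), so a difference between the genotypes' responses was not shown.

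The libraries of the genotypes also did not overlap for Hmox1 at 0 h, where wt was 0.16 log2 units lower, for Prdx1 at 8 h and for Sod2 at 12 h, where the differences were -0.12 and -0.02. With 2 libraries against 2 this was common, since 28.8% of all genes did not overlap at 0 h, 51.9% at 8 h and 43.1% at 12 h, beside 1, 3 and 1 of the 10 members. Over the mean of the 3 times the members differed by between -0.18 (Slc7a11) and 0.06 (Sod2), and the widest 95% interval reached a fold of 1.30. At single times the intervals reached a fold of 1.41 at 0 h, 1.69 at 8 h and 1.34 at 12 h. These are the outermost bounds over the 10 members, and the values do not show that the genotypes were alike.

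**Figure D5:**
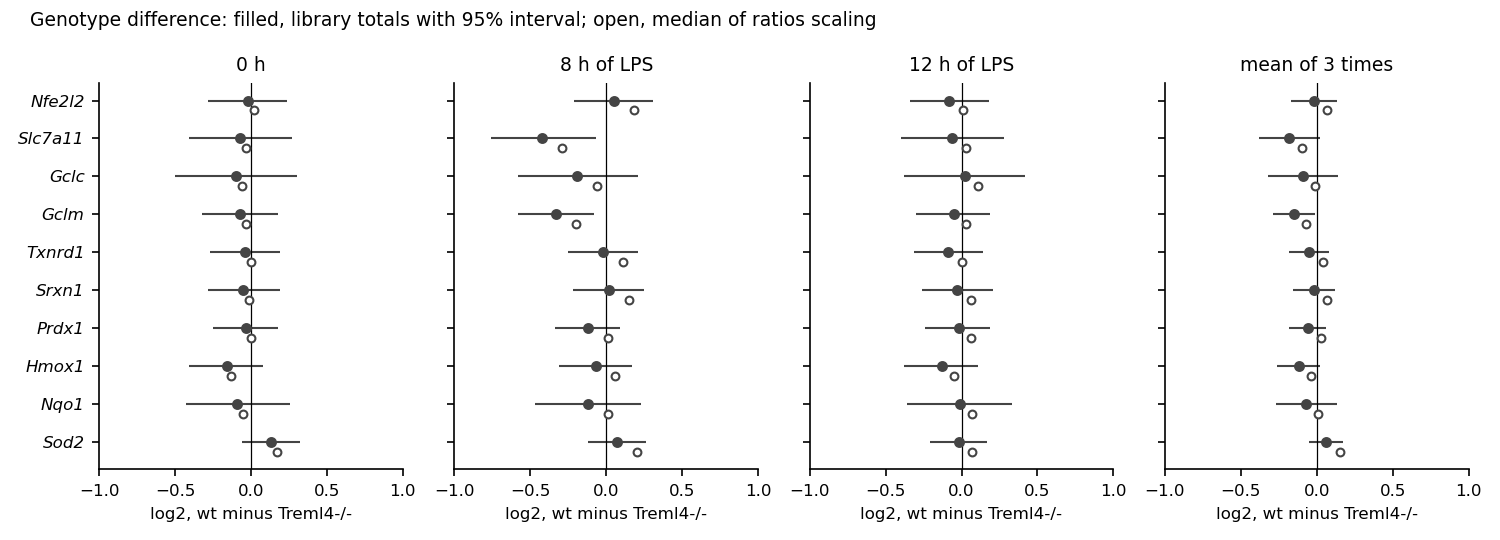
Log2 difference of each member, wt minus Treml4-/-, at 0 h, 8 h and 12 h of LPS and for the mean of the 3 times. Filled points with lines are the values scaled by library totals with 95% intervals from the limma fit, and open points are the values scaled by the median of ratios. Intervals span 0 for all members but Gclm and Slc7a11 at 8 h and Gclm in the mean, none of which passed the adjusted threshold.

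The wider pathway was read from 8 lists of 60 other genes, of which 58 were tested (Gsta4 and Sod3 were too low). By library totals 8 of the 58 were called higher and 39 lower in wt cells at 8 h, and 11 and 39 in Treml4-/- cells. The 39 lower genes were 67.2% of the 58, near the 60.6% of all genes called lower in wt cells at 8 h. In Treml4-/- cells 58.1% of all genes were called lower. The 8 and 11 higher genes were 13.8% and 19.0% of the 58, beside 16.3% and 17.7% of all genes. The counts of each list below are for wt cells at 8 h and stand against the background of their scaling. By library totals it was 16.3% higher and 60.6% lower, and by the median of ratios 30.9% higher and 30.9% lower. At 12 h the counts were 14 higher and 28 lower in wt and 12 and 31 in Treml4-/- cells. These were 24.1% and 48.3% of the 58 in wt, beside 16.2% and 60.4% of all genes. In Treml4-/- cells they were 20.7% and 53.4%, beside 16.1% and 59.6%. By the median of ratios the counts were 17 higher and 19 lower in wt and 14 and 25 in Treml4-/- cells at 8 h, and 26 and 21, and 25 and 22, at 12 h. At 8 h this was 29.3% and 32.8% in wt, beside 30.9% and 30.9% of all genes. In Treml4-/- cells it was 24.1% and 43.1%, beside 31.0% and 32.5%. At 12 h it was 44.8% and 36.2% in wt, beside 32.9% and 33.1%, and 43.1% and 37.9% in Treml4-/- cells, beside 32.4% and 32.5%. The median log2 change of the 58 in wt cells at 8 h was -0.81 by library totals, beside -0.74 for all genes, and 0.01 beside -0.03 by the median of ratios. None of the 58 was called for genotype or for a response difference. Of all genes, 0.0910 to 0.414% were called for genotype and 0.00827% for a response difference, so this is no result about the 58.

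Among 9 regulators and partners of NRF2, 3 were called higher and 2 lower in wt cells at 8 h by library totals, and 7 higher and none lower by the median of ratios. The small MAF genes Maff and Mafk rose, Maff from 1.77 and 3.30 CPM to 15.6 and 18.8 and Mafk from 36.3 and 41.6 to 101 and 102 (log2 2.39 and 1.36 by library totals, 3.03 and 2.19 by the median of ratios). Mafg, also a small MAF, fell by 0.79 and Nfe2l1, a relative of NRF2, by 0.55 by library totals, but neither was called by the median of ratios (0.04 and 0.29). Keap1, the inhibitor of NRF2, is given for its role and not by the rule for naming genes. It had 90.1 and 84.0 CPM in wt cells at 0 h, 154 and 163 at 8 h and 153 and 171 at 12 h, a rise called under both scalings in both genotypes (log2 0.86 in wt and 0.66 in Treml4-/- cells at 8 h, 0.89 and 0.70 at 12 h). Bach1, a repressor of Hmox1 that heme inactivates, is given on the same ground. It had 124 and 95.9 CPM in wt cells at 0 h and 142 and 151 at 8 h (log2 0.42, adjusted p = 0.00996, under the fold limit), and was called higher in wt cells by the median of ratios (1.26). In Treml4-/- cells it had 97.2 and 112, then 186 and 225 CPM, called under both scalings (log2 0.97 and 1.71), but the difference of the responses was not called (-0.55, adjusted p = 0.729).

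Of 13 tested genes of glutathione synthesis and use, 2 were called higher and 10 lower in wt cells at 8 h by library totals and 3 and 5 by the median of ratios. Slc3a2, the heavy chain that pairs with Slc7a11, rose 1.03 log2 units by library totals and 1.87 by the median of ratios. Gsr, the reductase that recycles glutathione, rose 0.54 and 1.38. The glutathione transferase Gsta3 and the extracellular peroxidase Gpx3 fell by 2.85 and 2.02 by library totals, with -2.05 and -1.24 by the median of ratios. Of 10 thioredoxin and peroxiredoxin genes 2 were higher and 6 lower by library totals and 3 and 3 by the median of ratios. Prdx5, a peroxiredoxin of mitochondria and peroxisomes, rose from 181 and 223 CPM to 1405 and 1582 (log2 2.88 by library totals and 3.73 by the median of ratios), and thioredoxin Txn1 rose by 1.53 and 2.37. Txnip, the thioredoxin-interacting protein, fell by 2.81 and the mitochondrial reductase Txnrd2 fell by 1.75 by library totals, with -1.97 and -0.97 by the median of ratios.

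Of the dismutase and catalase list, Sod3 was too low to test and the other genes, Cat and Sod1, fell. Catalase (Cat) fell from 1282 and 1039 CPM in wt cells to 277 and 237 at 8 h (log2 -2.17 by library totals, -1.32 by the median of ratios), and the cytosolic dismutase Sod1 from 622 and 639 to 252 and 209 (log2 -1.45 and -0.61) and to 140 and 136 CPM at 12 h. Both were called lower under both scalings and in both genotypes at 8 and 12 h. All 6 NADPH supply genes were called lower at 8 h in wt cells by library totals and 3 of them by the median of ratios. Idh1, the cytosolic isocitrate dehydrogenase, fell by 4.48 on the log2 scale and the pentose phosphate enzyme Tkt fell by 2.07 by library totals, with -3.65 and -1.23 by the median of ratios.

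Of 4 genes of heme breakdown and ferritin, none was called higher and 2 lower in wt cells at 8 h by library totals, and 2 higher and 1 lower by the median of ratios. The ferritin light chain Ftl1 fell by 1.75 by library totals, with -0.90, also called, by the median of ratios. Biliverdin reductase Blvra fell by 1.29 by library totals, while its median of ratios value, -0.46 (adjusted p = 0.00391), was under the fold limit. Of 8 genes that detoxify quinones, epoxides and carbonyls, 7 were called lower and none higher by library totals, and 5 lower and none higher by the median of ratios. Carbonyl reductase Cbr1 fell by 2.14. Osgin1, an oxidative stress-induced growth inhibitor, fell by 2.01. Their median of ratios values were -1.35 and -1.19, both called. Of 6 NADPH oxidase subunit genes 1 was called higher and 4 lower by library totals, and 2 higher and none lower by the median of ratios. Cybb, the catalytic subunit, rose by 0.81 log2 units by library totals and 1.66 by the median of ratios, and the cytosolic subunits Ncf4 and Ncf1 fell by 1.30 and 0.58 by library totals, with -0.46 and 0.26, not called, by the median of ratios.

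For each member the genes with the most similar course were taken as the 3 with the highest Pearson correlation of log2(CPM + 1) over the 12 libraries, among some 8167 genes whose condition means spanned at least 1 log2 unit. The points share 3 times and their libraries' scale, so high values are common and carry no test. The closest genes to Sod2 were Pim1, Gbp2 and Gbp5 (highest 0.9992), to Hmox1 Agpat9, Oas1c and A530064D06Rik (0.9976) and to Nfe2l2 Ahr, Spata5 and Timm23 (0.9968). For Nqo1 they were Aurkb, Gtse1 and Mccc2 (0.9985), for Gclm Phka1, Ptgr2 and Gmnn (0.9966) and for Txnrd1 Ppm1b, Mcur1 and Eml4 (0.9831). For Gclc the closest gene was Unc5b (0.9888). Those of Prdx1 were Map2k1, Zc3hav1 and Slc6a19 (0.9987) and those of Slc7a11 Serpinb1b, Ifi44 and Gm4951 (0.9965). For Srxn1 the highest was Unc13a at 0.7169. Genes as flat as Srxn1 had been left out by the limit of 1 log2 unit, so a gene with its flat course could not be found. Srxn1 and Txnrd1 spanned less than this limit and could not be matches themselves. None of the other members was among the 3 closest genes of another member.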

How the data were processed

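The authors sequenced poly(A)-selected stranded libraries (TruSeq, paired-end reads), aligned them with STAR (build mm10, per the submitters' processing notes) and counted reads per gene with Subread; the annotation and strand setting are not given in the sources used here. The deposited values are log2 CPM, with a prior count of 0.25 added by the authors. Undoing the prior gave whole reads for 100% of values (tolerance 0.01). The design had assumed CPM, so CPM was computed from these reads, log2(CPM + 1) was tested with limma 3.58.1 (R 4.3.3; 1 mean per condition over the 12 libraries, trend in the prior variance), and fold changes on this scale understate those of low genes. The test kept genes reaching 1 CPM in 2 or more libraries. Calls needed an adjusted p (Benjamini-Hochberg) under 0.05 and a fold of 1.4, as in the study. The fit was tested on simulated data in which few genes changed. The LPS comparisons here called most genes, so that simulation did not test the effect of the scaling. Replicates differed by more than counting noise (chi-square per degree of freedom at least 12.0).

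The genes and lists were chosen with earlier results of these data known. Named genes were all members, from each list the 2 strongest rises and falls called in wt cells at 8 h and any gene called for genotype, and the 3 genes most like each member. Alternatives were other pseudocounts, filters, scalings, replicate blocks, subsets of libraries, the deposited scale and each library left out, and voom on recovered reads, added after the data were seen. Gene positions are from GENCODE M21 (GRCm38), promoter sequences from RefSeq (GRCm38.p6). A few genes that these rules cover are not reported here.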

Additional observations from a re-analysis of the deposited data

How the results depend on the processing

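Besides the fit reported, 22 settings were run, 12 of which left out 1 library each. Of 1050 refits of the members' LPS comparisons, 1024 kept direction and call. Many of these refits returned the same estimate by design, for instance where the library left out was not part of the comparison. The count is therefore no measure of how stable the values are. No member was called for genotype or response difference in any of 1260 refits, 98 of which changed the sign of a small value (to at most 0.26). In the fit reported, 0.0910 to 0.414% of all genes were called for genotype and 0.00827% for a response difference. With so few genes called, the lack of a called member is no result about the members. The refits reuse the same 12 libraries. The scaling mattered most. By the median of ratios Srxn1 at 8 h was 0.83 in wt and 0.67 in Treml4-/- cells, Gclc at 12 h 0.33 and 0.17 and Txnrd1 at 12 h 0.54 and 0.54, each with a changed sign. Of the 98 sign changes in genotype and response differences, 25 came with this scaling, so the direction of many of these small values depended on it. Among them were the genotype differences of Sod2 at 12 h (0.065) and Prdx1 at 8 h (0.0097), where this scaling moved the median gene by 0.08 and 0.12. Leaving out single libraries moved Srxn1 in wt cells from -0.089 to 0.052 at 8 h and from -0.056 to 0.27 at 12 h.

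Counts of all genes called between genotypes were less stable. Leaving out 1 library gave 7 to 220 at 0 h (220 without wt 0 h replicate 1), 8 to 599 at 8 h (599 without Treml4-/- 8 h replicate 1), 6 to 79 at 12 h (79 without wt 12 h replicate 1), 21 to 183 for the mean, 1 to 3 for the 8 h response and 1 to 33 for the 12 h response, and the cause was not tested. Fits of only the libraries compared gave 7, 5 and 8 at 0, 8 and 12 h. Without a filter 7 were called at 8 h, 7 at 12 h, 17 for the mean and 2 for the 8 h response. For the mean a pseudocount of 0.1 gave 78 and at least 5 CPM gave 31. Voom gave 10 at 12 h, and voom and the deposited log2 values gave 0 for both responses.

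Whether same-numbered libraries share an animal or culture is not given. Their deviations correlated at -0.27 to 0.46 (-0.26 between genotypes at 0 h), so the numbers were not taken as pairs. With the replicate block 12, 12 and 15 genes were called for genotype at 0, 8 and 12 h, against 12, 11 and 16 without it. Crossing the numbers at 0 h gave 10, 13 and 17. No member's call changed with either. The planned fits with negative binomial count models were not run. The deposited unit is log2 CPM, but whole reads were recovered from it, so such fits were possible. Voom on these reads was run instead.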
